A study of Mus musculus with 15 samples.

Results

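RNA-seq values of 50 cell cycle and DNA replication genes were examined in tumor-associated macrophages (TAMs). The 50 genes were taken by symbol from a list drawn up with earlier results of these data known, with no threshold on a value, and each had 1 row in the deposited table of 55335 mouse genes. TAMs had been sorted by FACS, on CD11b and the macrophage antigen encoded by Adgre1, from orthotopic liver tumors in C57BL/6 mice. The tumors were grown from Hepa1-6, a hepatoma line of the mouse that carried a lentiviral firefly luciferase. The series asked whether TAMs change when miR-144 or miR-451a is overexpressed in the HCC cells, and it holds 5 samples from control HCC, 5 from HCC with miR-144 overexpression and 5 from HCC with miR-451a overexpression. They are called control, miR-144 and miR-451a TAMs here, although the miRNAs were delivered by lentivirus to the hepatoma cells and not to the macrophages. The labels give all 15 samples as untreated, and they state neither the age of the mice nor whether the samples of a group came from separate mice, so p-values measure only the spread between these samples, which may be technical. All 5 samples of each group were used, more than the number given for the RNA-seq panels of the study, and both comparisons with control share the same 5 control samples.

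A cell that divides passes from G1 through S phase and G2 into mitosis. D-type cyclins with the kinases CDK4 and CDK6 start the process by phosphorylating RB, which then releases the E2F factors, while the CIP/KIP and INK4 inhibitors hold the kinases back. E2F targets license the origins (CDC6, CDT1 and the MCM2-7 helicase), clamp the polymerase to DNA (PCNA) and supply deoxynucleotides. Cyclins A and B with CDK1, and kinases such as PLK1 and the Aurora kinases, then drive mitosis, and the anaphase-promoting complex (APC/C) ends it. Most macrophages of a tissue are out of cycle at a given time, and some can divide in place.

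Each value is an FPKM, a number of fragments scaled to transcript length in kilobases and to sequencing depth in M fragments. Depth, read from the steps between low FPKM values, was approximately 23.7 to 27.6 M fragments in control TAMs, 17.9 to 27.2 M in miR-144 TAMs and 15.5 to 30.3 M in miR-451a TAMs. None of the 750 member values was at 0 or at the level of 3 fragments, a limit that covers counting error only. Of 9 macrophage markers, all were detected, with summed levels of 3981 to 4167 FPKM in control, 6190 to 6734 in miR-144 and 6149 to 6866 in miR-451a TAMs. The markers did not all rise, and Cd68 had means of 1444 FPKM in control, 919 in miR-144 and 910 in miR-451a TAMs (adjusted p = 1.15e-07 and 8.37e-08 by limma). Of 47 markers of other cell types, 39 were under 1 FPKM in all 15 samples, with the 5 hepatocyte markers, Alb among them, and Cd3e at 0 throughout. The 4 fibroblast markers summed to 105 to 130 FPKM in control, 140 to 208 in miR-144 and 179 to 228 in miR-451a TAMs, and the 5 neutrophil markers to 64.9 to 79.2, 46.3 to 52.2 and 44.1 to 53.2. Nearly all of the neutrophil sum was Csf3r, with means of 70.4, 49.0 and 48.3 FPKM, and the other 4 neutrophil markers were under 1 FPKM in all samples. The monocyte markers summed to 0.134 to 0.271, 1.1 to 1.4 and 1.48 to 2.01 FPKM, and the B cell markers to 0.138 to 0.375, 1.12 to 1.45 and 1.17 to 1.73. The endothelial markers summed to 2.715 to 3.39, 3.53 to 4.521 and 3.445 to 5.375 FPKM, and the NK cell markers to 0.1922 to 0.4161, 0.04769 to 0.1682 and 0.03233 to 0.1371. These sums moved with the groups, and their part in the results on the 50 genes was not tested.

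In both miRNA groups some of the cell cycle genes were higher and some lower, as among all genes tested. Ccnd1, Ccnd2 and Cdk6, which promote the passage through G1, and Cdkn1b, which blocks it, were 1.57 to 2.19 times their control level, whereas Pcna, Cdt1, Cenpa, Tpx2 and Mki67 were lower, at 0.569 to 0.782 of control. Of the 50 genes, 20 were higher and 7 lower in miR-144 than in control TAMs at an adjusted p under 0.05 by limma, and 23 did not pass. In the background of 29540 genes tested, 23.1% were higher and 9.65% lower. In miR-451a TAMs 26 were higher, 6 lower and 18 did not pass, with a background of 24.5% higher and 9.69% lower. Most of these genes had a mean under 1 FPKM. The 11419 genes that averaged 1 FPKM or more, called expressed genes here, were also tested alone. In miR-144 TAMs 47.1% of them were higher and 20.1% lower, and in miR-451a TAMs 48.1% and 20.3%. In that fit, 21 of the 43 genes of the list that reached the level were higher and 7 lower in miR-144 TAMs, and 26 and 8 in miR-451a TAMs. All 5 miRNA samples lay on one side of all 5 control samples for 19 of these 43 genes in miR-144 TAMs and 21 in miR-451a TAMs, where 53.9% and 55.2% of expressed genes did so.

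The median log2 fold change of the 50 genes was 0.13 in miR-144 TAMs and 0.22 in miR-451a TAMs. The median over the expressed genes was itself 0.13 and 0.14, and 25 genes of the list lay above it and 25 below with miR-144, and 30 and 20 with miR-451a. All log2 fold changes are differences of log2(FPKM + 1), which understate the change of genes near 1 FPKM. With each sample centred on its median expressed gene, 10 genes were higher and 12 lower with miR-144, and 14 and 12 with miR-451a. Quantile normalization gave 6 higher and 11 lower, and 9 and 10, while rescaling to TPM gave 22 and 6, and 30 and 5. Under median centring Ccne1, Cdc25b and Cdkn2c were lower in both comparisons, joined by Mcm5 and Birc5 with miR-144 and by Cdk4, Gmnn and Mcm2 with miR-451a. Genes whose calls held in both comparisons are therefore listed further below. In the bulk RNA of sorted cells, fewer cells in cycle and less RNA of a gene per cell cannot be told apart.

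**Figure D1:**
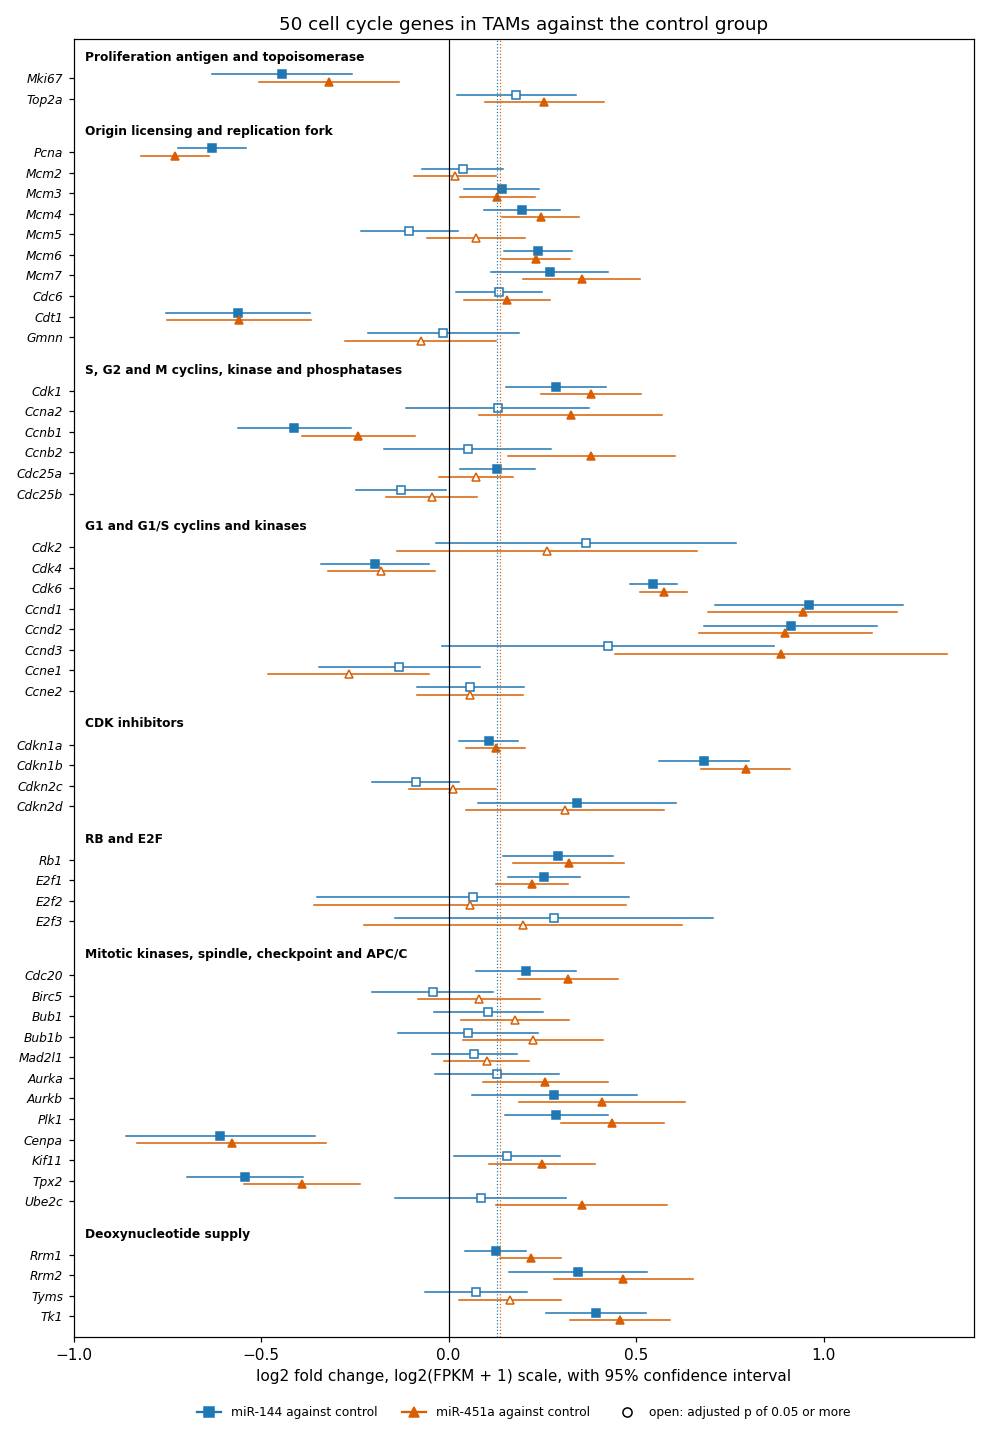
Log2 fold change of log2(FPKM + 1) against control for the 50 genes, grouped by role, in miR-144 and miR-451a TAMs, with 95% confidence intervals from limma. Filled points passed an adjusted p under 0.05 and open points did not, and the dotted lines mark the median of the expressed genes, 0.13 and 0.14. Ccnd1, Ccnd2 and Cdkn1b lie far to the right and Pcna, Cenpa, Cdt1 and Tpx2 to the left.

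The genes were lowly to moderately expressed. Pcna was the highest, with a mean of 46.1 FPKM over the 15 samples (92.4th percentile of the expressed genes), followed by Cdk4 with 24.9 and Cdkn1a with 21.3, and 4 genes exceeded 10 FPKM. The median of the list was 2.72 FPKM, against 6.49 for all expressed genes. Mad2l1, Birc5, Kif11, Bub1, Ccne2, Tyms and Cdc6 were the 7 genes with a mean under 1 FPKM. The coefficient of variation between samples of a group had a median of 10.4% in control, 10.6% in miR-144 and 11.9% in miR-451a TAMs.

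Cell cycle promoters carry recurring short motifs, so the 250 bases before the start of each gene were read from RefSeq (GRCm38.p6), where 41 of the 50 genes had an entry. The CHR (TTTGAA or TTCGAA, either strand) is bound by the DREAM and MMB complexes of late cell cycle genes. It stood in 12 of the 41 (29.3%) and in 19.6% of 27025 mouse genes. A gene was counted where at least 1 of its promoters of this length held the motif. An E2F motif (TTTCCCGC, TTTGGCGC, TTTCGCGC or TTTGCCGC, either strand) stood in 8 of 41 (19.5%) against 2.16%, and CCAAT, the NF-Y motif, in 29 of 41 (70.7%) against 37.5%. A match describes the letters and is not a shown site. Genes with a CHR and genes with CCAAT went both ways. Of the 12 with a CHR, 7 were higher in at least 1 comparison, Mki67 was lower and 4 passed in neither. Of the 8 with an E2F motif, 5 were higher, 0 lower and 3 passed in neither, and of the 29 with CCAAT, 17 were higher, 4 lower and 8 passed in neither. Of all genes tested, 26.9% were higher and 10.6% lower in at least 1 comparison, and of the expressed genes 47.9% and 20.3%. The stretches just upstream of the start are shown for Mki67, which was lower in both comparisons, for Cdk1 and Cdc20, which carry the same CHR motif and were higher in both, for Mcm6 with E2F motifs only besides CCAAT, and for Cdkn1b, which was higher with neither a CHR nor an E2F motif in the stretch. They are written 5′ to 3′ on the strand of the gene with all motif matches in capitals.
Mki67, chr7:135716380-135716529, minus strand: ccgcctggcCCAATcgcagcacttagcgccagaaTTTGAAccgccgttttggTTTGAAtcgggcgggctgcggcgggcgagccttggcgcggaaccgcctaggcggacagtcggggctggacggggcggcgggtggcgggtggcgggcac
Cdk1, chr10:69352939-69353062, minus strand: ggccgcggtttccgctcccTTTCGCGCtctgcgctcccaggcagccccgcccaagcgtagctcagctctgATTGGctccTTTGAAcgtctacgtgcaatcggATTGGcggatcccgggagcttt
Cdc20, chr4:118437353-118437493, minus strand: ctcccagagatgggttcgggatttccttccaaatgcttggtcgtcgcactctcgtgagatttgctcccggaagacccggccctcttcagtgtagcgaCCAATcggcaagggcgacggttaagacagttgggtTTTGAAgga
Mcm6, chr1:128359706-128359855, minus strand: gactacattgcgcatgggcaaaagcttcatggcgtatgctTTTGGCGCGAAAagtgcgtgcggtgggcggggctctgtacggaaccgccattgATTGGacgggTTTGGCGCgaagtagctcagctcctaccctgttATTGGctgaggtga
Cdkn1b, chr6:134920251-134920400, plus strand: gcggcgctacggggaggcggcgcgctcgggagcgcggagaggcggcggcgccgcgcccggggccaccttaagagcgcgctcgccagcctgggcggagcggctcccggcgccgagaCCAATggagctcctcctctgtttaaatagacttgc
In the stretches shown, Mki67 holds 2 CHRs and Cdk1 and Cdc20 hold 1 each, and Cdk1 holds another, at -15 from its RefSeq start, beyond the end of the stretch. Mcm6 holds 3 E2F matches, of which 2 overlap within the first run of capitals, and ATTGG is CCAAT on the other strand.

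The D-type cyclins sense growth signals and activate CDK4 and CDK6, and Ccnd1 and Ccnd2 showed the largest log2 rises among the genes of the list that passed in both comparisons. Ccnd1 (ENSMUSG00000070348, chr7:144929931-144939925 of GRCm38, minus strand) had 4.11, 4.06, 4.03, 4.89 and 5.40 FPKM in the 5 control samples. It had 10.2, 9.12, 11.2, 10.4 and 7.74 in miR-144 TAMs and 8.81, 9.18, 10.4, 12.2 and 7.62 in miR-451a TAMs. Each miRNA sample was above every control sample. The means were 4.5 ± 0.619, 9.73 ± 1.33 and 9.64 ± 1.74 FPKM (SD, n = 5), with log2 fold changes of 0.96 (SE 0.12, adjusted p = 1.2e-05) and 0.94 (SE 0.12, adjusted p = 1.35e-05). Exons of LTO1 (Oraov1 in the table) on the other strand overlap 23.4% of the Ccnd1 exon bases, and Oraov1 had 1.44 to 1.87 FPKM in control, 1.85 to 2.24 in miR-144 and 1.74 to 2.33 in miR-451a TAMs. Whether the counting used strand is not given in the sources used here.

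Ccnd2 (ENSMUSG00000000184, chr6:127125162-127152193, minus strand), the cyclin D2 gene, ran in parallel. Its control values were 2.71, 2.81, 2.68, 3.13 and 3.34 FPKM, against 6.70, 6.81, 7.05, 6.18 and 5.35 in miR-144 and 6.42, 5.53, 7.05, 8.20 and 4.84 in miR-451a TAMs, again with no overlap. The means were 2.93 ± 0.287, 6.42 ± 0.678 and 6.41 ± 1.31 FPKM, and the log2 fold changes 0.91 (SE 0.11, adjusted p = 8.51e-06) and 0.90 (SE 0.11, adjusted p = 9.41e-06). Ccnd3 varied far more within groups, from 0.590 to 2.04 FPKM in control, 1.29 to 2.34 in miR-144 and 1.31 to 3.69 in miR-451a TAMs. It was higher in miR-451a TAMs (log2 fold change 0.89, SE 0.21, adjusted p = 0.0033), and with miR-144 it had 0.43 (SE 0.21, adjusted p = 0.145), which passed without control replicate 5. The calls of all 3 cyclins held under every rescaling where they were made. Summed over the 3 genes, D-type cyclin FPKM was 8.47 ± 1.37 in control, 17.8 ± 1.55 in miR-144 and 18.8 ± 2.59 in miR-451a TAMs, and Ccnd1 made up 53.3%, 54.4% and 51.0% of the sum.

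Of the kinase partners, Cdk6 rose in both comparisons. Cdk6 (ENSMUSG00000040274, chr5:3341485-3531008, plus strand) had a narrow spread, with 4.43, 4.32, 4.15, 4.26 and 4.26 FPKM in control TAMs. It had 6.65, 7.23, 6.84, 6.33 and 6.56 in miR-144 and 6.87, 6.68, 6.91, 6.81 and 7.05 in miR-451a TAMs, so that the gap to control was many times the spread within groups. The log2 fold changes were 0.55 (SE 0.03, adjusted p = 2.01e-09) and 0.57 (SE 0.03, adjusted p = 1.11e-09). Cdk4 went from 27.2 ± 2.27 FPKM in control to 23.6 ± 1.82 and 23.9 ± 1.84. Its groups overlapped, and as deposited only the fall with miR-144 passed (-0.20, SE 0.07, adjusted p = 0.0347, against -0.18 and 0.0508 with miR-451a). That call was lost with 7 of the 10 samples left out in turn. On the TPM scale neither fall passed (-0.13 and -0.10, adjusted p = 0.168 and 0.292). Both passed under median centring (-0.33 and -0.32, adjusted p = 0.000272 and 0.000309) and under quantile normalization (-0.24 and -0.22, adjusted p = 0.0129 and 0.0196). Exons of Tspan31 on the other strand overlap 19.7% of the Cdk4 exon bases. The ratio of Cdk4 to Cdk6 FPKM within a sample was 6.34 ± 0.480 in control, 3.51 ± 0.175 in miR-144 and 3.48 ± 0.286 in miR-451a TAMs, for a pair that was chosen after the values were seen. Cdk2, the partner of cyclin E, and Ccne1 and Ccne2, the E cyclins, passed in neither comparison. Cdk2 ranged from 3.11 to 5.24 FPKM in control and from 3.07 to 6.13 in miR-144 TAMs, where it passed once replicate 5 was left out. Ccne1 had a mean of 1.49 FPKM in control, 1.28 in miR-144 and 1.06 in miR-451a TAMs, where the adjusted p was 0.0548, and Ccne2 had 0.464, 0.521 and 0.525.

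None of the 4 inhibitors of these kinases passed as lower on the deposited scale. Cdkn1b (ENSMUSG00000003031, chr6:134920401-134925513, plus strand) encodes p27, which holds cells in G1, and its promoter stretch is among those shown. Control TAMs had 6.86, 6.68, 6.62, 6.64 and 6.28 FPKM, miR-144 TAMs 11.4, 9.81, 13.1, 10.8 and 11.2, and miR-451a TAMs 12.2, 12.5, 12.8, 12.2 and 11.2. No miRNA sample came near the control range. The log2 fold changes were 0.68 (SE 0.06, adjusted p = 1.86e-07) and 0.79 (SE 0.06, adjusted p = 3.46e-08), and both held under every rescaling. Cdkn1a, the p21 gene and a p53 target, had 20.1 ± 1.1, 21.8 ± 0.828 and 22.1 ± 0.721 FPKM. Both of its small rises (0.11 and 0.13, adjusted p = 0.036 and 0.0144) turned to -0.03 and -0.02 under median centring. Of the INK4 genes, Cdkn2d (p19) had means of 4.80, 6.28 and 6.13 FPKM and passed with miR-144 (adjusted p = 0.0465), which was lost under median centring and quantile normalization and without 7 of the 10 samples in turn. Cdkn2c (p18) had 5.08, 4.73 and 5.13 FPKM and passed in neither, although it was lower in both under median centring (-0.22 and -0.13). In all, 3 of the 4 inhibitors were higher in miR-144 TAMs and 2 in miR-451a TAMs, beside 3 and 4 of the 8 G1 cyclins and kinases, where 44.1% and 45.3% of the expressed genes were higher in the same fit. Of the 5 calls on the inhibitors, only the 2 of Cdkn1b held under every rescaling.

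Rb1 and E2f1 rose slightly. Rb1, the brake on E2F, had 7.42, 8.32, 8.10, 8.37 and 7.86 FPKM in control TAMs, 8.98 to 11.6 in miR-144 and 8.96 to 11 in miR-451a TAMs, without overlap. Its log2 fold changes were 0.29 (SE 0.07, adjusted p = 0.00387) and 0.32 (SE 0.07, adjusted p = 0.00182), and 14.9% of its exon bases are overlapped by Lpar6 and Rcbtb2 on the other strand. E2f1, an activator of S phase genes, rose from 8.5 ± 0.492 to 10.3 ± 0.447 and 10.1 ± 0.629 FPKM (0.25 and 0.22, SE 0.04 each, adjusted p = 0.000397 and 0.00117). Of these 4 calls, only that of E2f1 with miR-144 held under every rescaling. E2f2 and E2f3 passed in neither comparison, with means of 5.90, 6.34 and 6.34 FPKM and of 3.71, 4.45 and 4.14 FPKM.

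**Figure D2:**
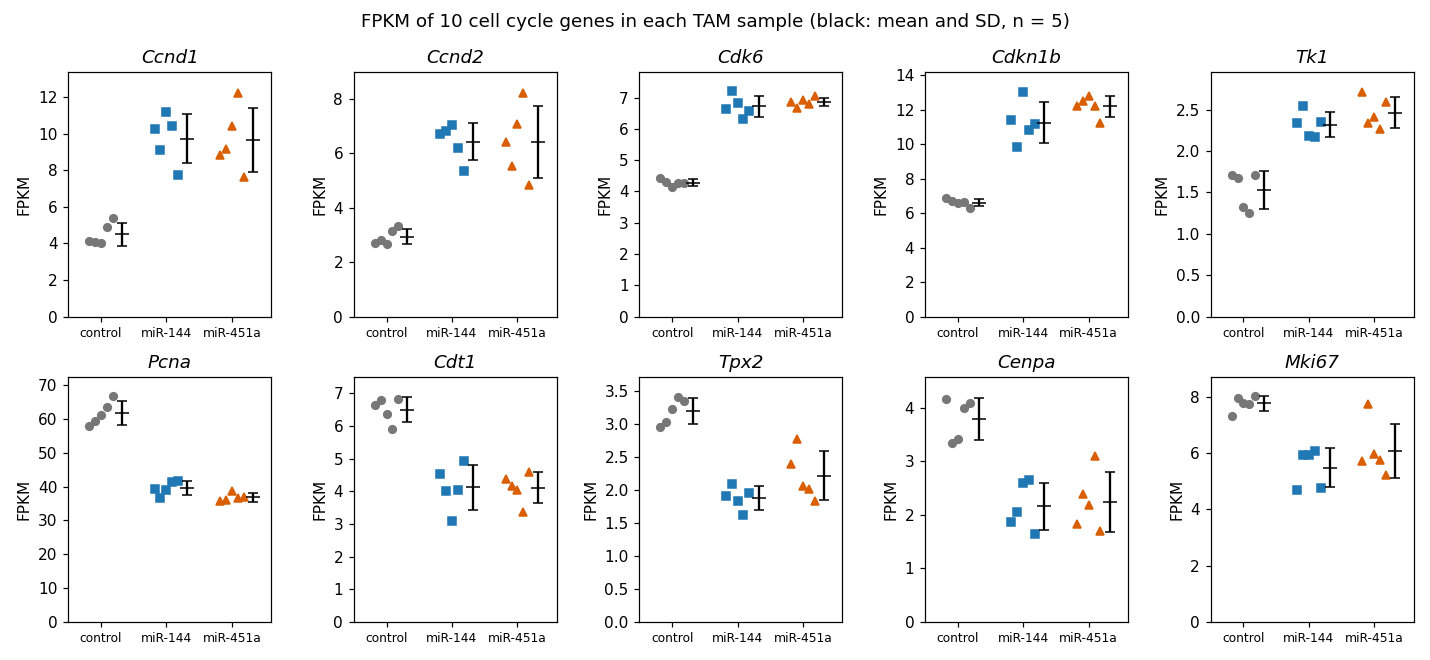
FPKM of 10 cell cycle genes in each of the 15 samples, by group, with the mean and SD of each group in black. Ccnd1, Ccnd2, Cdk6, Cdkn1b and Tk1 are higher in each miRNA sample than in any control sample, and Pcna, Cdt1, Cenpa and Tpx2 lower, while miR-451a replicate 2 of Mki67 (7.76 FPKM) lies within the control range.

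Among the replication genes, the clamp gene Pcna and the licensing gene Cdt1 fell, and 4 of the 6 helicase subunits passed as higher on the deposited scale, where 44.1% and 45.3% of the expressed genes did so in the same fit. Pcna (ENSMUSG00000027342, chr2:132249162-132253314, minus strand), the sliding clamp of the polymerases, had 57.9, 59.5, 61.1, 63.6 and 66.8 FPKM in control TAMs. It had 39.2, 36.5, 39.1, 41.3 and 41.7 in miR-144 and 35.7, 36.0, 38.8, 36.7 and 37.0 in miR-451a TAMs. No sample of either miRNA group came near the control range. Pcna fell by 0.63 on the log2 scale with miR-144 (SE 0.04, adjusted p = 2.18e-08) and by 0.73 with miR-451a (SE 0.04, adjusted p = 4.16e-09). The Pcna transcript shares 31.8% of its 50-base stretches with other genes, most with Pcna-ps2, so the split of fragments between them is uncertain. Pcna-ps2 was lower as well, with 9.58 to 12.7 FPKM in control, 6.55 to 7.64 in miR-144 and 5.86 to 7.53 in miR-451a TAMs.

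Cdt1 (ENSMUSG00000006585, chr8:122568015-122573554, plus strand) loads the MCM helicase on origins. Its values were 6.64, 6.78, 6.38, 5.90 and 6.82 FPKM in control, 4.53, 4.01, 3.10, 4.04 and 4.93 in miR-144 and 4.38, 4.17, 4.02, 3.35 and 4.60 in miR-451a TAMs, with no overlap. It fell by 0.56 in both comparisons (SE 0.09, adjusted p = 0.000158 and 0.000151), and it shares no sequence and no exon with another gene. Gmnn, which encodes geminin, the inhibitor of CDT1, had 7.57 ± 0.925, 7.48 ± 0.781 and 7.15 ± 0.938 FPKM and passed in neither. The ratio of Gmnn to Cdt1, chosen after the values were seen, was 1.17 ± 0.158 in control, 1.83 ± 0.183 in miR-144 and 1.76 ± 0.285 in miR-451a TAMs. Cdc6, the other loader, was very low, with 0.117 to 0.233 FPKM in control, 0.152 to 0.393 in miR-144 and 0.238 to 0.416 in miR-451a TAMs, and it passed only with miR-451a (0.16, SE 0.05, adjusted p = 0.035), without holding under median centring.

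Of the 6 subunits of the MCM2-7 helicase, Mcm3, Mcm4, Mcm6 and Mcm7 were higher in both comparisons. Mcm6, whose promoter stretch with 3 E2F matches is shown, had 7.64, 7.84, 7.19, 7.21 and 7.72 FPKM in control, 8.43 to 9.67 in miR-144 and 8.30 to 9.41 in miR-451a TAMs. Its log2 fold changes were 0.24 and 0.23 (SE 0.04 each, adjusted p = 0.000385 and 0.000438). Mcm4 had 5.56 ± 0.344, 6.52 ± 0.402 and 6.78 ± 0.382 FPKM. Mcm7 had 2.89 ± 0.398, 3.68 ± 0.444 and 3.95 ± 0.189, and it shares 26.0% of its stretches with other genes, most with Gm5487. Mcm3 had 7.34 ± 0.630, 8.19 ± 0.338 and 8.11 ± 0.291, and its rise lay at the median of the expressed genes, with -0.01 in miR-451a TAMs under median centring and -0.02 under quantile normalization. Mcm2 and Mcm5 passed in neither, with 1.99, 2.06 and 2.02 FPKM and 2.48, 2.25 and 2.67 FPKM. None of the 8 calls made on these 4 genes held under all rescalings. The mean of the 6 subunits was 4.63 ± 0.245 FPKM in control, 5.29 ± 0.195 in miR-144 and 5.42 ± 0.105 in miR-451a TAMs, and Pcna was 13.4 ± 0.713, 7.48 ± 0.469 and 6.79 ± 0.349 times that mean.

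Genes of deoxynucleotide supply were higher or did not pass. Tk1 (ENSMUSG00000025574, chr11:117815526-117826092, minus strand), thymidine kinase of the salvage pathway, had 1.71, 1.68, 1.32, 1.25 and 1.71 FPKM in control, 2.35, 2.54, 2.18, 2.17 and 2.35 in miR-144 and 2.72, 2.34, 2.41, 2.27 and 2.59 in miR-451a TAMs. No miRNA sample overlapped the control samples, and the log2 fold changes of 0.39 and 0.46 (SE 0.06 each, adjusted p = 0.000143 and 3.4e-05) held under every rescaling. Rrm2, the regulated subunit of ribonucleotide reductase, had 1.99 ± 0.306, 2.80 ± 0.307 and 3.14 ± 0.405 FPKM (0.35 and 0.47, SE 0.09 each, adjusted p = 0.00549 and 0.000519). Rrm1, the large subunit, had 3.36 ± 0.0951, 3.75 ± 0.0599 and 4.08 ± 0.308 FPKM, and its change with miR-144 became -0.01 under median centring and -0.02 under quantile normalization. Tyms, thymidylate synthase, had 0.409, 0.484 and 0.577 FPKM and passed in neither comparison.

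**Figure D3:**
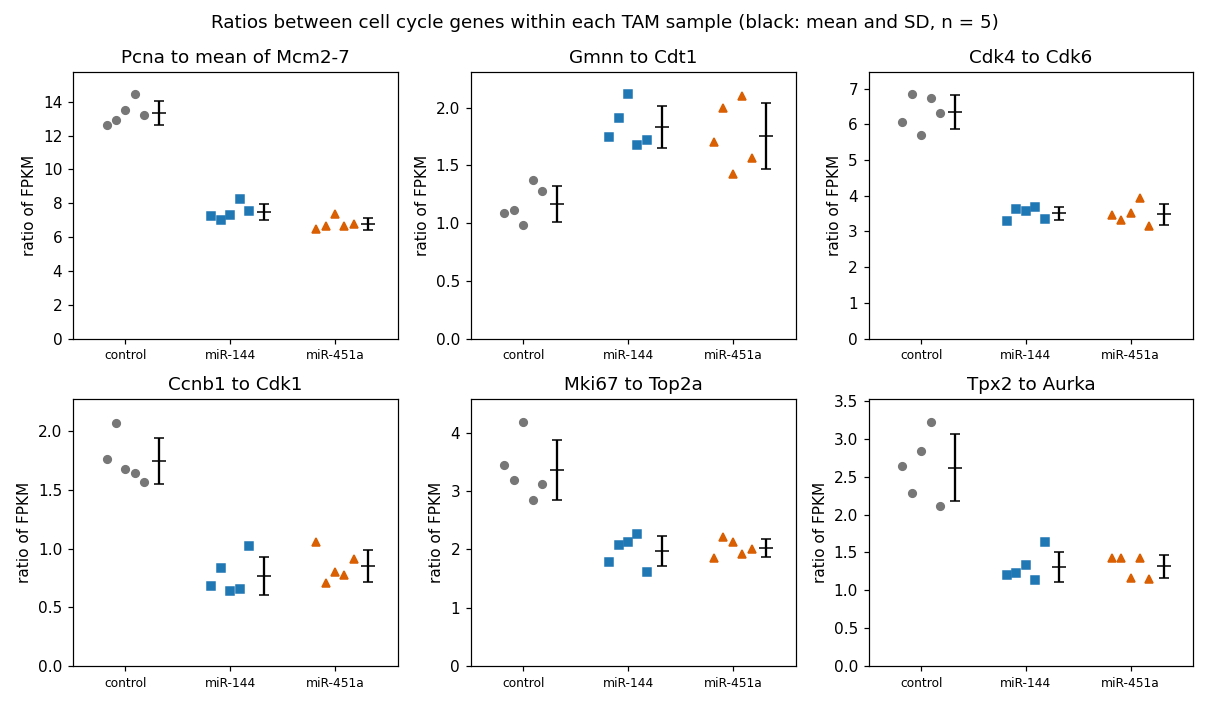
Ratios of FPKM between pairs of cell cycle genes within each sample, by group, with the mean and SD of each group in black. Gmnn to Cdt1 is higher in each miRNA sample than in any control sample, and the other 5 ratios are lower, for pairs that were chosen after the values were seen.

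Among the genes of S, G2 and M phase, Cdk1 passed as higher and its partner Ccnb1 as lower in both comparisons. Cdk1 (ENSMUSG00000019942, chr10:69335146-69352938, minus strand), the kinase of mitotic entry, had 1.06, 1.09, 0.932, 1.06 and 1.17 FPKM in control, 1.43, 1.68, 1.67, 1.54 and 1.27 in miR-144 and 1.42, 1.82, 1.70, 1.93 and 1.57 in miR-451a TAMs, without overlap. It was higher by 0.29 and 0.38 (SE 0.06 each, adjusted p = 0.0021 and 0.000187). The call with miR-451a held under every rescaling, and that with miR-144 was lost under quantile normalization (0.14, adjusted p = 0.0947). The partner of Cdk1, Ccnb1 (cyclin B1), had 1.87, 2.26, 1.57, 1.75 and 1.84 FPKM in control, 0.972 to 1.4 in miR-144 and 1.28 to 1.5 in miR-451a TAMs. Ccnb1 fell by 0.41 (SE 0.07, adjusted p = 0.000293) and 0.24 (SE 0.07, adjusted p = 0.0148), the latter call being lost on the TPM scale. It shares 42.1% of its stretches with other genes, most with Ccnb1-ps, which had 0.0585 to 0.403 FPKM over all samples. The ratio of Ccnb1 to Cdk1, chosen after the values were seen, was 1.75 ± 0.195 in control, 0.764 ± 0.163 in miR-144 and 0.848 ± 0.137 in miR-451a TAMs.

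Ccnb2 and Ccna2, the other cyclins of G2 and S phase, passed with miR-451a alone. Ccnb2 had 1.28 to 1.65 FPKM in control, 1.22 to 1.92 in miR-144 and 1.71 to 3.02 in miR-451a TAMs (0.38, SE 0.10, adjusted p = 0.00963 for the last against control). Ccna2 had 0.463 to 1.17, 0.961 to 1.17 and 1.12 to 1.98 FPKM (0.33, SE 0.11, adjusted p = 0.0384), a call lost when any of 5 samples was left out. Of the phosphatases that activate the CDKs, Cdc25a passed with miR-144 (1.39 ± 0.102 to 1.62 ± 0.0926 FPKM, adjusted p = 0.0451, with a change of -0.00 under median centring) and had 1.52 ± 0.123 FPKM with miR-451a. Cdc25b, with 7.99, 7.23 and 7.70 FPKM, passed in neither.

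Mki67 (ENSMUSG00000031004, chr7:135689784-135716361, minus strand), which encodes the proliferation antigen Ki-67, had 7.34, 7.97, 7.79, 7.74 and 8.04 FPKM in control TAMs. It had 4.68, 5.93, 5.93, 6.10 and 4.77 in miR-144 and 5.71, 7.76, 5.96, 5.76 and 5.22 in miR-451a TAMs. All miR-144 samples were below control, and of the miR-451a samples only replicate 2 reached it. The fall was 0.44 (SE 0.09, adjusted p = 0.000951) and 0.32 (SE 0.09, adjusted p = 0.00969), and both calls held under every rescaling. Top2a, topoisomerase IIα, which disentangles chromosomes in dividing cells, had 2.36 ± 0.355, 2.79 ± 0.128 and 3.0 ± 0.340 FPKM and was higher with miR-451a (0.26, SE 0.07, adjusted p = 0.0135), though not under median centring or quantile normalization. The ratio of Mki67 to Top2a was 3.36 ± 0.513 in control, 1.97 ± 0.262 in miR-144 and 2.02 ± 0.146 in miR-451a TAMs.

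Among 12 genes of the mitotic kinases, the spindle, the checkpoint and the APC/C, 3 were higher and 2 lower with miR-144, and 6 and 2 with miR-451a, against 44.1% and 18.6%, and 45.3% and 18.8%, of the expressed genes in the same fit. Kif11, Mad2l1, Birc5 and Bub1, 4 of the 12, had a mean under 1 FPKM. Cenpa (ENSMUSG00000029177, chr5:30666777-30674830, plus strand), the centromeric histone H3 variant, had 4.16, 3.34, 3.41, 3.99 and 4.09 FPKM in control, 1.87, 2.04, 2.59, 2.65 and 1.65 in miR-144 and 1.83, 2.38, 2.18, 3.11 and 1.69 in miR-451a TAMs. It fell by 0.61 and 0.58 (SE 0.12 each, adjusted p = 0.000818 and 0.00117) without overlap. Tpx2 (ENSMUSG00000027469, chr2:152847964-152895321, plus strand), which activates Aurora A on the spindle, had 2.95, 3.03, 3.23, 3.41 and 3.35 FPKM in control, 1.91, 2.09, 1.82, 1.61 and 1.95 in miR-144 and 2.39, 2.78, 2.06, 2.01 and 1.83 in miR-451a TAMs. It fell by 0.54 and 0.39 (SE 0.07 each, adjusted p = 2.85e-05 and 0.000549), again without overlap. Aurka, the Aurora A gene, had 1.25 ± 0.216, 1.45 ± 0.197 and 1.68 ± 0.202 FPKM and was higher with miR-451a (0.26, SE 0.08, adjusted p = 0.0171), so that the ratio of Tpx2 to Aurka was 2.62 ± 0.444, 1.31 ± 0.196 and 1.32 ± 0.148.

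The other mitotic kinases and the APC/C factors were higher or did not pass. Plk1, which acts at mitotic entry and exit, had 1.03, 1.06, 0.728, 1.11 and 1.18 FPKM in control, 1.51, 1.34, 1.42, 1.48 and 1.55 in miR-144 and 1.57, 2.01, 1.62, 1.65 and 1.80 in miR-451a TAMs. The 3 groups did not overlap, and the log2 fold changes against control were 0.29 (SE 0.06, adjusted p = 0.00257) and 0.44 (SE 0.06, adjusted p = 6.94e-05), the second of which held under every rescaling. Cdc20, the APC/C activator whose promoter stretch is shown, had 2.33 ± 0.166, 2.84 ± 0.217 and 3.16 ± 0.368 FPKM (0.21 and 0.32, SE 0.06 each, adjusted p = 0.0186 and 0.00082), calls that were lost under quantile normalization. Aurkb, the kinase of the chromosomal passenger complex, had 2.05 ± 0.354, 2.70 ± 0.383 and 3.05 ± 0.534 FPKM, with adjusted p-values of 0.0491 and 0.00578, and its call with miR-144 was lost when any of 8 samples was left out. Kif11, the spindle motor Eg5, and Ube2c, the E2 enzyme of the APC/C, passed with miR-451a alone, with 0.684, 0.876 and 1.01 FPKM and 0.871, 0.979 and 1.41 FPKM. The checkpoint genes Bub1, Bub1b and Mad2l1 and Birc5, the survivin gene, passed in neither, with means of 0.545 to 0.750, 1.88 to 2.38, 0.894 to 1.04 and 0.842 to 1.01 FPKM over the groups.

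**Figure D4:**
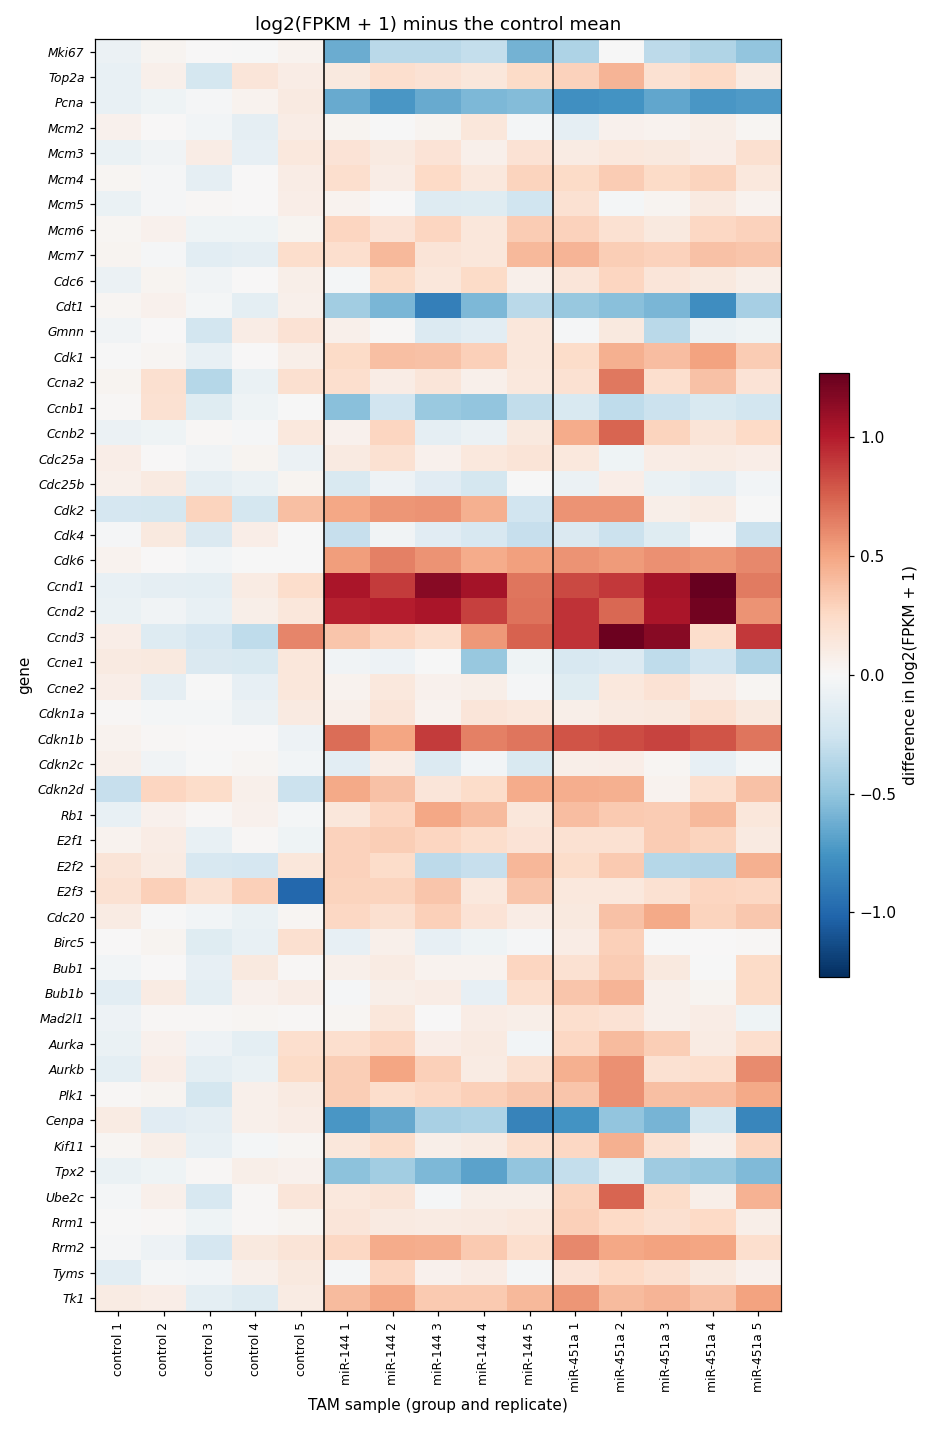
Difference of log2(FPKM + 1) from the control mean for each of the 50 genes (rows) in each of the 15 samples (columns, by group). Red marks values above and blue values below the control mean, with Pcna, Cdt1, Cenpa, Tpx2 and Mki67 below it in each miRNA sample and Ccnd1, Ccnd2, Cdk6 and Cdkn1b above it.

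Between miR-451a and miR-144 TAMs, 0 of the 50 genes passed by limma, and the background was 0% of 29540 genes. At an unadjusted p under 0.05, 8 of the 50 and 1459 of all genes tested differed. The 20 genes of S, G2 and M phase (the 6 cyclins, kinase and phosphatases, the 12 mitotic genes, Mki67 and Top2a) leaned one way. Of their log2 differences 19 of 20 were positive, with a median of 0.12. Of the 11419 expressed genes 6147 were positive, with a median of 0.01. Under an unadjusted p of 0.05 were 4 of the 20 and 604 of the expressed genes. Ccnb2 had 0.33 (95% confidence interval 0.11 to 0.55, adjusted p = 0.831), Ube2c 0.27 (0.04 to 0.50, adjusted p = 0.909), Ccnb1 0.17 (0.02 to 0.32, adjusted p = 0.909) and Plk1 0.15 (0.01 to 0.29, adjusted p = 0.909). One library weighed on this: miR-451a replicate 2 was the highest of its group for 13 of the 20 genes, and without it the median was 0.08 with 19 of 20 still positive. In miR-144 TAMs, replicate 2 was likewise the highest for 11 of 20. For Ccnd1, Ccnd2, Cdk6 and Cdt1 the intervals of the difference were -0.27 to 0.23, -0.25 to 0.22, -0.04 to 0.09 and -0.19 to 0.19.

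Across both comparisons with control, 18 genes were higher in both, 6 lower in both, 8 higher with miR-451a alone, 2 higher and 1 lower with miR-144 alone, and 15 passed in neither, with 0 genes called in opposite directions. Of all genes tested, 20.7% were higher in both and 8.69% lower in both. Of the expressed genes, 41.5% were higher in both, 17.2% lower in both, 3.79% higher with miR-451a alone, 2.52% higher with miR-144 alone and 1.45% lower with miR-144 alone. These counts share the control samples. Calls in both comparisons that held under median centring, quantile normalization and TPM and with each sample left out in turn were those of Ccnd1, Ccnd2, Cdk6, Cdkn1b and Tk1 among the rises and of Pcna, Cdt1, Cenpa, Tpx2 and Mki67 among the falls. Of the 20 genes higher with miR-144, 6 held under the 3 rescalings and 15 with each sample left out. Of the 26 higher with miR-451a, 9 and 23 did so. Of the falls, 6 of 7 and 6 of 7 held with miR-144, and 5 of 6 and 6 of 6 with miR-451a.

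**Figure D5:**
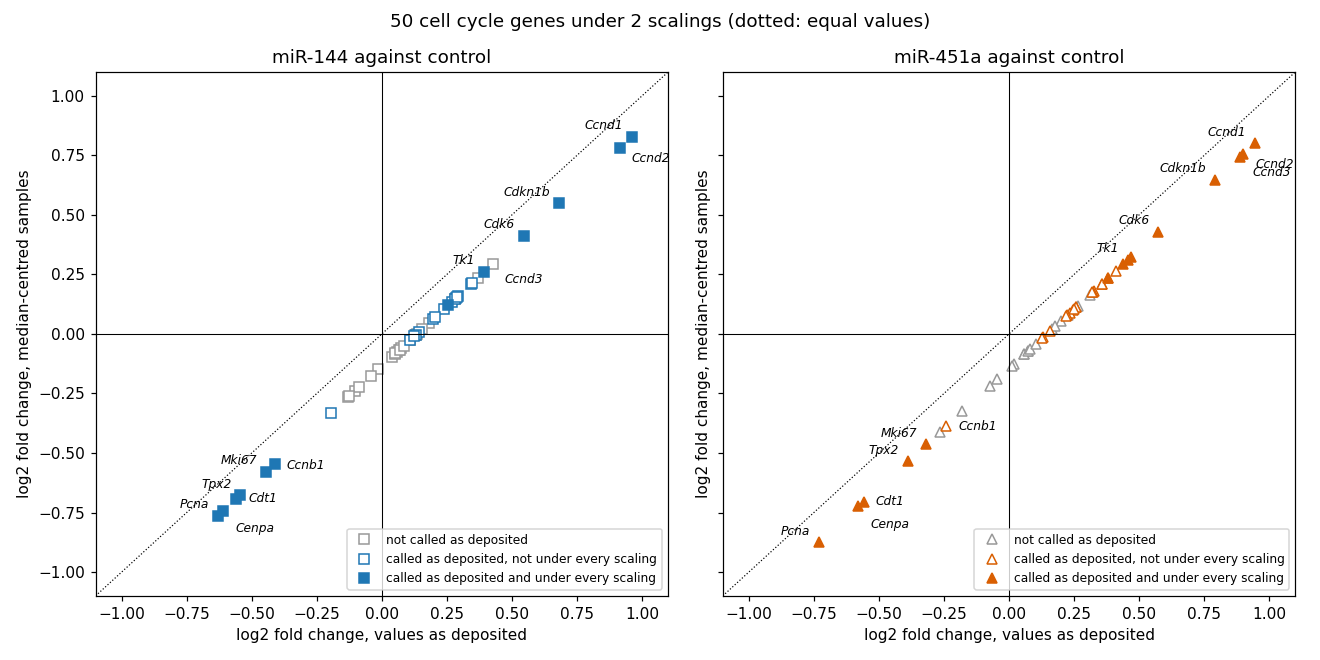
Log2 fold change of the 50 genes against control as deposited (x axis) and after centring each sample on its median expressed gene (y axis), for miR-144 and miR-451a TAMs. Filled points kept their call under median centring, quantile normalization and TPM, and the whole cloud lies below the diagonal by about the median shift of 0.13 and 0.14.

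In the wider pathway, 115 other cell cycle genes from a list of origin and fork genes, cyclins and kinases, inhibitors and E2F family members and mitotic genes were also mixed. With miR-144, 34 were higher and 15 lower, with a median log2 fold change of 0.08, and with miR-451a 51 were higher and 15 lower, with a median of 0.11. All genes tested were 23.1% higher and 9.65% lower with miR-144 and 24.5% and 9.69% with miR-451a. Of the expressed genes in the same fit, 44.1% were higher and 18.6% lower with miR-144, and 45.3% and 18.8% with miR-451a. The medians of the expressed genes were 0.13 and 0.14. Of the 115, 0 differed between the miRNA groups by limma (8 at an unadjusted p under 0.05). The 4 largest falls of those lower in both were Dut, Cdc7, Cdkn1c and Wee1. Dut, the dUTPase that keeps uracil out of DNA, had 28.9 to 38.7 FPKM in control (median 35.5), 1.21 to 1.75 in miR-144 (median 1.57) and 1.48 to 1.96 in miR-451a TAMs (median 1.73). Its control mean was 22.5 times the miR-144 mean and 19.95 times the miR-451a mean (adjusted p = 9.81e-14 and 1.25e-13), the widest gap among these genes and the 50, and Dut shares no sequence or exon with another gene. Cdc7, the kinase that fires origins, fell from 1.58 ± 0.129 to 0.457 ± 0.0967 and 0.458 ± 0.0689 FPKM. Wee1, the kinase that restrains CDK1, fell from 3.21 ± 0.168 to 1.43 ± 0.289 and 1.42 ± 0.229. Cdkn1c (p57) fell from 8.47 ± 1.14 to 4.80 ± 0.685 and 4.08 ± 0.426, with 30.7% of its exon bases overlapped by Gm44732 on the other strand. The 4 largest rises were Pttg1 (securin), from 5.64 ± 0.497 to 9.86 ± 0.910 and 9.87 ± 0.519 FPKM, Ccng2 (cyclin G2), from 5.11 ± 0.210 to 8.19 ± 0.366 and 8.27 ± 0.479, Fzr1 (the APC/C activator CDH1), from 4.68 ± 0.358 to 7.05 ± 0.341 and 7.17 ± 0.141, and Ncaph (a condensin I subunit), from 1.08 ± 0.107 to 2.0 ± 0.177 and 1.81 ± 0.222. None of these 8 genes overlapped between control and either miRNA group, and their calls held under all 3 rescalings and with each sample left out.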

How the data were processed

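RNA-seq (Illumina HiSeq 3000) was performed by the authors on TAMs of 3 groups of 5 samples, and groups and replicate numbers were taken from the sample labels. The authors deposited FPKM per gene and sample, already divided by transcript length and sequencing depth, in 1 table whose 15 sample columns were all used (0 columns were left unmapped). Per the submitters' processing notes, FastQC 0.11.2, STAR and StringTie were used, and the genome build, annotation and strand setting are not given in the sources used here. Counts were not recovered, since 42.9% to 55.8% of low values in a sample lay within 0.05 fragments of a whole fragment (10% by chance), so no count model was run.

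Values were compared as log2(FPKM + 1) by limma (version 3.58.1, R version 4.3.3), two-sided, with the 3 groups in 1 fit, a trended variance and Benjamini-Hochberg adjustment over the 29540 genes above 0 in at least 1 sample. The same fit was repeated with a pseudocount of 0.1, for genes averaging 1 FPKM or more, after quantile normalization, median centring or conversion to TPM, with the replicate number as a block, with a term for replicates 3 and 4 (chosen after seeing the data), without the trend, within the 2 compared groups, and without each of the 15 samples. It was first tested on simulated data of known change. Levels are the mean ± SD of FPKM. Coordinates are 1-based from GENCODE M21 (GRCm38), where 99.7% of the identifiers and all 50 genes occur, and promoters are from RefSeq (GRCm38.p6). The authors may have used another build. Shared sequence was measured on the longest transcript, as the share of its 50-base windows that another gene's transcripts also hold. Python 3.11.15, numpy 2.4.6, pandas 2.3.3, scipy 1.17.1 and matplotlib 3.10.9 were used.

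All 50 genes may be named. Of the other cell cycle genes, the 4 largest rises and 4 largest falls among those passing in both comparisons are named. The 50 genes, the lists and the motifs were chosen with earlier results of these data known.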

Additional observations from a re-analysis of the deposited data

Results flagged for a closer look

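A test for a lone sample far from the other 4 of its group (Dixon's critical value 0.71 for 5 samples) was run on the 50 genes in the 3 groups, 150 tests in all, where chance marks about 1 in 20, or 7.5, and 6 were marked. E2f3 in control replicate 5 had 1.244 FPKM, where the nearest control sample had 4.105. Cdk2 in miR-144 replicate 5 had 3.069 FPKM against 5.568 in the nearest sample, and it passed in miR-144 TAMs without that sample. Ccne1 in miR-144 replicate 4 had 0.7764 FPKM, with 1.367 the nearest. Mcm2 in miR-451a replicate 1 had 1.758 FPKM (nearest 2.03), Mad2l1 in control replicate 1 had 0.8115 (nearest 0.9088) and Bub1 in miR-144 replicate 5 had 0.8609, above its nearest value of 0.6608.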

How the results depend on the processing

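The 27 calls with miR-144 and 32 with miR-451a became 17 and 19 under quantile normalization. With miR-144, the higher genes numbered 10 under median centring and 6 under quantile normalization in place of 20, and the lower genes 12 and 11 in place of 7. With miR-451a, 14 and 9 were higher in place of 26, and 12 and 10 lower in place of 6. Leaving out each sample gave 22 to 25 calls (16 to 19 higher, 6 to 8 lower) with miR-144 and 29 to 34 (23 to 27 higher, 6 to 8 lower) with miR-451a, 0 between the miRNA groups, and 47 to 51, 58 to 67 and 0 for the 115 other genes. Of changes that passed as deposited or on the other scale itself, the log2 fold change turned under median centring to -0.127 for Mcm2, -0.0148 for Mcm3, -0.0189 for Cdkn1a and -0.134 for Cdkn2c with miR-451a, and to -0.0271 for Cdkn1a, -0.0040 for Cdc25a and -0.0089 for Rrm1 with miR-144. Under quantile normalization it turned to -0.15 for Mcm2 and -0.0166 for Mcm3 with miR-451a and to -0.0191 for Cdc25a and Rrm1 with miR-144. Signs of changes that passed on neither of the scales compared turned too, such as that of Cdkn2c with miR-451a under quantile normalization (-0.143). Of the 20 genes of S, G2 and M phase 14 were positive with miR-144 as deposited and 6 under median centring and under quantile normalization, against 15, 12 and 12 with miR-451a. With the replicate block, 20 genes were higher and 8 lower with miR-144 and 27 and 7 with miR-451a. The block added calls for Cdc6, Cdc25b and Kif11 with miR-144 and for Ccne1 and Bub1b with miR-451a, and lost those of Cdkn2d and Cdc25a with miR-144. Samples with the same number did not deviate together throughout (8 of 15 pairs with a correlation over 0.1, range -0.15 to 0.264), so the numbers were not taken as pairs. A term for replicates 3 and 4, added after seeing the data, gave 20 and 8 with miR-144 and 28 and 7 with miR-451a, and it changed 6 calls, adding Cdc25b and Kif11 with miR-144 and Ccne1, Bub1 and Bub1b with miR-451a and losing Cdc25a with miR-144. The 7 genes under 1 FPKM had no value at the level of 3 fragments. Whether depth limits them was not tested, nor was the cause of these changes.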

Other observations

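E2f2 fell into 2 bands that followed the replicate number and not the group, a pattern chosen after its values were seen. Replicates 3 and 4 of all 3 groups had 4.31 to 4.96 FPKM (6 samples), and replicates 1, 2 and 5 had 6.38 to 8.39 FPKM (9 samples). No sample lay between the bands. Kif11 was likewise lower in replicates 3 and 4 than in the others within each group. Among the 11419 expressed genes, replicates 3 and 4 lay below the other 3 samples in all 3 groups for 380 genes and above them for 140 (4.55% in all), against 2 and 0 of the 50. Mertk, a macrophage gene also chosen after its values were seen, had 44.1 and 45.6 FPKM in these replicates of the control and 36.5 to 38.8 in the others, 70.3 and 71.7 against 52.6 to 58.2 in miR-144 TAMs, and 69.3 and 70.2 against 55.3 to 59.4 in miR-451a TAMs. The replicate number is not described in the labels as a litter, day or batch.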
